A study of Mus musculus with 1111 samples.

Results

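Hexa, Gaa, Gusb, Glb1, Man2b1, Asah1 and Lgmn encode hydrolases of the lysosome, 6 of them enzymes that cut sugars or lipids and 1 a protease. They were taken by name from the gene column of the deposited count tables, by no cut on measured values. Earlier results of these data were known when they were chosen. They are 7 of the 35581 genes kept. All 7 were found, each on a single row, and all 7 passed the filter on low values in every comparison.

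Lysosomal hydrolases are made in the endoplasmic reticulum, most are tagged with mannose 6-phosphate in the Golgi and sorted to the lysosome, and there they work at acid pH on material brought in by endocytosis, phagocytosis or autophagy. Each glycosidase removes a particular sugar from the end of a glycan chain, so a glycolipid, glycoprotein or glycosaminoglycan is taken apart in a fixed order and loss of a single enzyme leads to storage of its substrate. Microglia, the resident macrophages of the brain, degrade much of what they take up by this route.

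Single microglia were isolated from the brains of 3-month-old mice 20 hours after injection of plasma proteins labelled with the fluorescent dye NHS-Atto647N, and were profiled by Smart-seq2, a plate method that makes 1 library per cell. The groups were microglia with no plasma signal (plasma none, 35.1% of the 987 cells left after filtering), with a low signal (plasma low, 35.6%) and with a high signal (plasma high, 29.4%). All groups share the age, the injection and the time, while the strain, sex and genotype of the mice and the number of animals are not given in the sources used here. The titles carry a plate well and a label TH 1, TH 2 or TH 3, which the labels do not explain. No label names an animal, so each group is 1 sample of cells. The groups are therefore compared without a test, and errors are SD over the 3 TH numbers (n = 3), a spread between sets of wells and not between mice. In every TH number plasma none sat in plate columns 1 to 8, plasma low in 9 to 16 and plasma high in 17 to 23, so group and plate column cannot be told apart.

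Reads of passing cells were summed by group and TH number into 9 sums of 21309688 to 49322770 reads, the largest being plasma low of TH 2. The microglia markers Tmem119, P2ry12, Cx3cr1, Csf1r, Sall1, Fcrls and Siglech all had reads and summed to 32708 ± 1346, 32131 ± 2857 and 31163 ± 2145 CPM (read counts of a gene scaled to the reads in all genes) for plasma none, low and high, with P2ry12 the most abundant. Of 8 markers of border-associated macrophages, 6 were at 0 in each group, among them Pf4, Cd163 and Lyve1, and the list summed to 0.217 to 1.34, 2.64 to 22.2 and 0 to 4.50 CPM. Median genes per cell at an equal 50000 reads were 1535 ± 66.1, 1809.5 ± 193.05 and 1745 ± 111.8 for plasma none, low and high, and the median mitochondrial share of reads was 0.603%, 0.794% and 0.970%. The part of genes per cell and of the mitochondrial share in the differences given here was not tested.

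For the 7 hydrolases, the counts of differences between plasma groups were near those over all genes tested. Between plasma high and plasma none, 0 of 7 differed by at least 1.5-fold in the same direction in 3 of 3 TH numbers. The same holds for 16.3% of the 5534 genes tested. Man2b1, the lysosomal alpha-mannosidase, was 1.30-fold higher in plasma high, and Lgmn, the protease and the most abundant of the 7, differed by 0.01 ± 0.08 on the log2 scale. Glb1, the lysosomal beta-galactosidase, had the only difference past 1.5-fold: it was lower in plasma high than in plasma low, by −0.64 ± 0.47 (log2). In that comparison 11.1% of 5709 genes tested passed the same rule. The Glb1 ratio was under 1.5-fold without TH 2 and with the outermost wells left out.

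The order of the levels was read per kb of transcript, so that genes of different length can be compared (range over the 9 sums). Lgmn stood at 3346 CPM per kb (2890 to 4049), 6.81 times the level of Hexa on average and 5.25 to 8.09 times in single sums. Hexa followed at 497 (415 to 657), then Asah1 at 364.5 (294.4 to 412), Man2b1 at 230.8 (164.9 to 290.7), Gusb at 136.8 (84.04 to 205.8), Glb1 at 40.8 (24.6 to 54.3) and Gaa at 27.2 CPM per kb (21.5 to 36.1). Among neighbours in this order, the ranges of Man2b1 and Gusb overlapped, as did those of Glb1 and Gaa. The other neighbouring ranges did not overlap, although those of Hexa and Asah1 and of Asah1 and Man2b1 nearly touched.

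**Figure D1:**
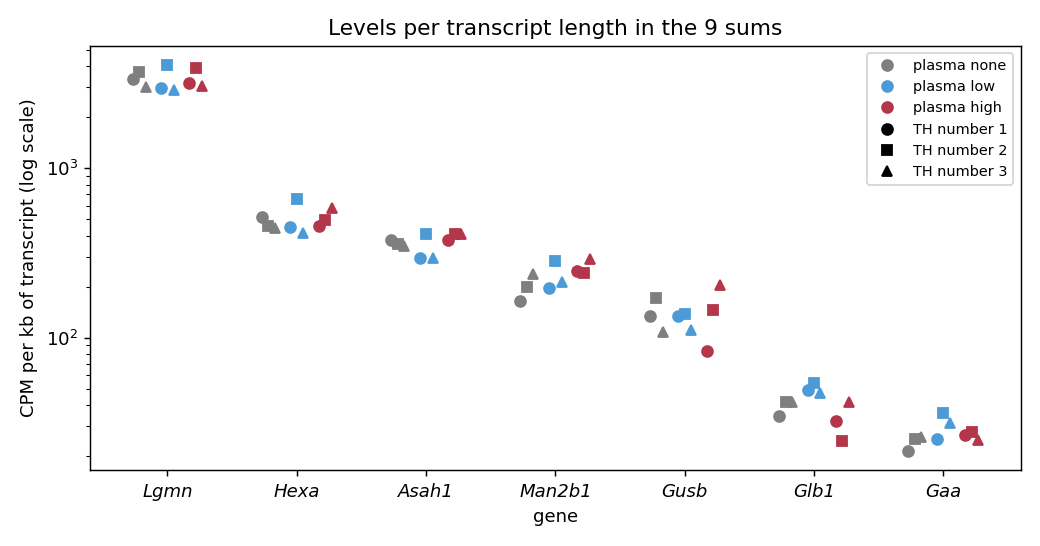
CPM per kb of transcript, on a log axis, for each of the 7 genes in order of mean level. Each point is 1 of the 9 sums, coloured by plasma group and shaped by TH number. The points of Man2b1 and Gusb overlap, as do those of Glb1 and Gaa, and Lgmn lies above the rest.

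Hexa encodes the alpha subunit of beta-hexosaminidase A, the enzyme that removes N-acetylgalactosamine from the ganglioside GM2 (chr9:59539540-59565109, plus strand, mm10). In plasma none its level was 1026, 916 and 888 CPM in TH 1, 2 and 3, in plasma low 892, 1312 and 829 CPM, and in plasma high 906, 989.5 and 1164 CPM. The groups overlapped, and plasma low held both the highest and the lowest of the 9 values. The log2 ratio was 0.11 ± 0.28 for plasma high against plasma none and 0.07 ± 0.39 for plasma low against plasma none, with both signs among TH numbers in each.

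Hexosaminidase A is helped by Gm2a, the activator protein that lifts GM2 from the membrane. Gm2a was above its plasma none level in plasma high in 3 of 3 TH numbers, at 747 ± 102.8 against 528 ± 44.6 CPM (log2 ratio 0.50 ± 0.17).

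A limit applies to Hexa. Tmem202 lies on the opposite strand and shares 14.96% of its exon bases with Hexa. Tmem202 was counted at 41.8 ± 6.0, 44.8 ± 6.6 and 45.7 ± 11.9 CPM over the none, low and high groups, or 4.44%, 4.52% and 4.45% of Hexa, and every cell with a Tmem202 read also had Hexa reads. Use of strand in the counting is not given in the sources used here, and reads of the 2 genes cannot be told apart.

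Glb1 encodes the beta-galactosidase that acts on the ganglioside GM1 and on keratan sulfate (chr9:114401076-114474898, plus strand). Its level was 82.3, 100.2 and 99.9 CPM in TH 1, 2 and 3 of plasma none, 117.6, 129.99 and 113.8 CPM in plasma low, and 77.2, 58.9 and 99.6 CPM in plasma high. Plasma low lay above every value of the other groups, and in each of the 3 TH numbers the order was plasma high, then plasma none, then plasma low. The log2 ratio was 0.36 ± 0.16 for plasma low against plasma none (1.28-fold) and −0.64 ± 0.47 for plasma high against plasma low (0.642-fold).

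The size of the last ratio rested on TH 2: the log2 ratios were −0.60, −1.13 and −0.19 in TH 1, 2 and 3, and without TH 2 their mean was −0.40, under 1.5-fold. It was −0.58, also under 1.5-fold, with the outermost wells left out. In plasma high of TH 2, 11 of 96 cells had a Glb1 read and 1 cell gave 36.6% of the reads. With the cell of most Glb1 reads left out of each sum, plasma high stood at −0.80 against plasma low and plasma low at 0.57 against plasma none. For plasma high against plasma none the log2 ratio was −0.28 ± 0.41, lower in 3 of 3 TH numbers, but −0.05 without TH 2 and 0.05 with each cell weighted equally. Tmppe lies on the same strand and shares 5.65% of its exon bases with Glb1, and it was counted at 17.3 ± 15.4, 10.7 ± 6.9 and 23.1 ± 19.1 CPM over the none, low and high groups. These are 18.3%, 8.7% and 35.1% of Glb1, the largest in plasma high, where Glb1 was lowest. Of cells with a Tmppe read, 86.1%, 91.7% and 85.4% also had Glb1 reads. The part of this overlap in the Glb1 ratios was not tested.

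In the lysosome beta-galactosidase sits in a complex with cathepsin A (Ctsa), which protects it, and with the sialidase Neu1. Ctsa was at 1477 ± 326.9, 1601 ± 312.1 and 1439 ± 331.8 CPM over the none, low and high groups, and was lower in plasma high than in plasma low in 3 of 3 TH numbers (log2 ratio −0.16 ± 0.07). Neu1 was at 96.3 ± 28.3, 70.7 ± 11.6 and 39.9 ± 14.6 CPM, below plasma none in plasma high in 3 of 3 TH numbers (log2 ratio −1.28 ± 0.95). Of these genes of the complex, Glb1 alone was higher in plasma low than in plasma none in 3 of 3 TH numbers, where Ctsa had a log2 ratio of 0.12 ± 0.19 and Neu1 of −0.42 ± 0.27. The differences between these genes were not tested.

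Asah1 encodes acid ceramidase, which splits ceramide into sphingosine and a fatty acid and so stands at the end of glycosphingolipid breakdown (chr8:41340197-41374773, minus strand). Its level was 1040.3, 993 and 960.2 CPM in TH 1, 2 and 3 of plasma none, 824, 1142 and 816 CPM in plasma low, and 1052, 1139 and 1132 CPM in plasma high. Plasma high lay above all of plasma none, by 0.15 ± 0.12 (log2, 1.11-fold), while plasma low overlapped both. The difference in TH 1 was 0.02, and the sign was no longer the same in 3 of 3 TH numbers under 5 of 11 alternative settings, scaling by library size among them. The settings among the 11 that change the number added to CPM (the pseudocount) cannot change a sign.

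Prosaposin, from Psap, yields the saposins that present sphingolipids to these enzymes, among them to acid ceramidase. It stood at 737 ± 99.2, 1112 ± 585 and 1182 ± 179.6 CPM over the none, low and high groups, and it was above its plasma none level in plasma high in 3 of 3 TH numbers (log2 ratio 0.68 ± 0.17). The helper proteins Psap and Gm2a thus had larger ratios than Hexa, Glb1 or Asah1, a difference that was not tested.

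Man2b1 encodes the alpha-mannosidase that trims mannose from the N-glycans of glycoproteins (chr8:85083270-85098282, plus strand). Its level was 630.4, 763 and 909 CPM in TH 1, 2 and 3 of plasma none, 755, 1091 and 812 CPM in plasma low, and 942, 925 and 1111 CPM in plasma high. The lowest value of plasma high was just above the highest of plasma none, and plasma low overlapped both. The log2 ratio of plasma high against plasma none was 0.38 ± 0.17 and was positive in 3 of 3 TH numbers under the main setting. It stayed so under 11 of 11 alternative settings that keep all TH numbers. Of these, the pseudocount settings cannot change a sign. Against plasma low, plasma high differed by 0.18 ± 0.37, within the spread.

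Gusb encodes beta-glucuronidase, an enzyme of glycosaminoglycan breakdown (chr5:129989011-130003049, minus strand). Its level was 360.1, 463 and 288.9 CPM in TH 1, 2 and 3 of plasma none, 358.7, 371.1 and 296.7 CPM in plasma low, and 225.8, 392 and 553 CPM in plasma high. Plasma high held both the lowest and the highest of the 9 values. Its log2 ratios against plasma none were −0.67, −0.24 and 0.93 in TH 1, 2 and 3, the widest spread of the 7 genes (mean 0.01 ± 0.83), and without TH 3 the mean was −0.46. The sign of the mean also changed with the scaling (by library size or by DESeq2 size factors).

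Gaa encodes acid alpha-glucosidase, which breaks down glycogen inside the lysosome (chr11:119267887-119285454, plus strand). Its level was 78.1, 91.7 and 94.2 CPM in TH 1, 2 and 3 of plasma none, 91.5, 131.1 and 113.5 CPM in plasma low, and 97.4, 101.1 and 90.6 CPM in plasma high. Plasma low was above plasma none within each TH number, by 0.33 ± 0.15 (log2, 1.26-fold), although the ranges of these groups overlapped. With each cell weighted equally this ratio was 0.61, and with each cell thinned to 50000 reads it was 0.58. Plasma high against plasma none was 0.13 ± 0.19, with a negative ratio in TH 3.

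Lgmn encodes legumain, a cysteine protease that cuts after asparagine and also processes other lysosomal proteases (chr12:102394084-102439813, minus strand). Its level was 6639, 7383 and 5987 CPM in TH 1, 2 and 3 of plasma none, 5946, 8058 and 5752 CPM in plasma low, and 6297, 7772 and 6091 CPM in plasma high. TH 2 was the highest in each group, and the groups overlapped throughout. The log2 ratio was 0.01 ± 0.08 for plasma high against plasma none, the smallest spread of the 7 genes, −0.03 ± 0.14 for plasma low against plasma none and 0.04 ± 0.08 for plasma high against plasma low. Its inhibitor Cst3, cystatin C, stood at 19738 ± 3921, 22896 ± 2762 and 24667 ± 3522 CPM over the none, low and high groups, and was above its plasma none level in plasma high in 3 of 3 TH numbers (log2 ratio 0.33 ± 0.08).

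**Figure D2:**
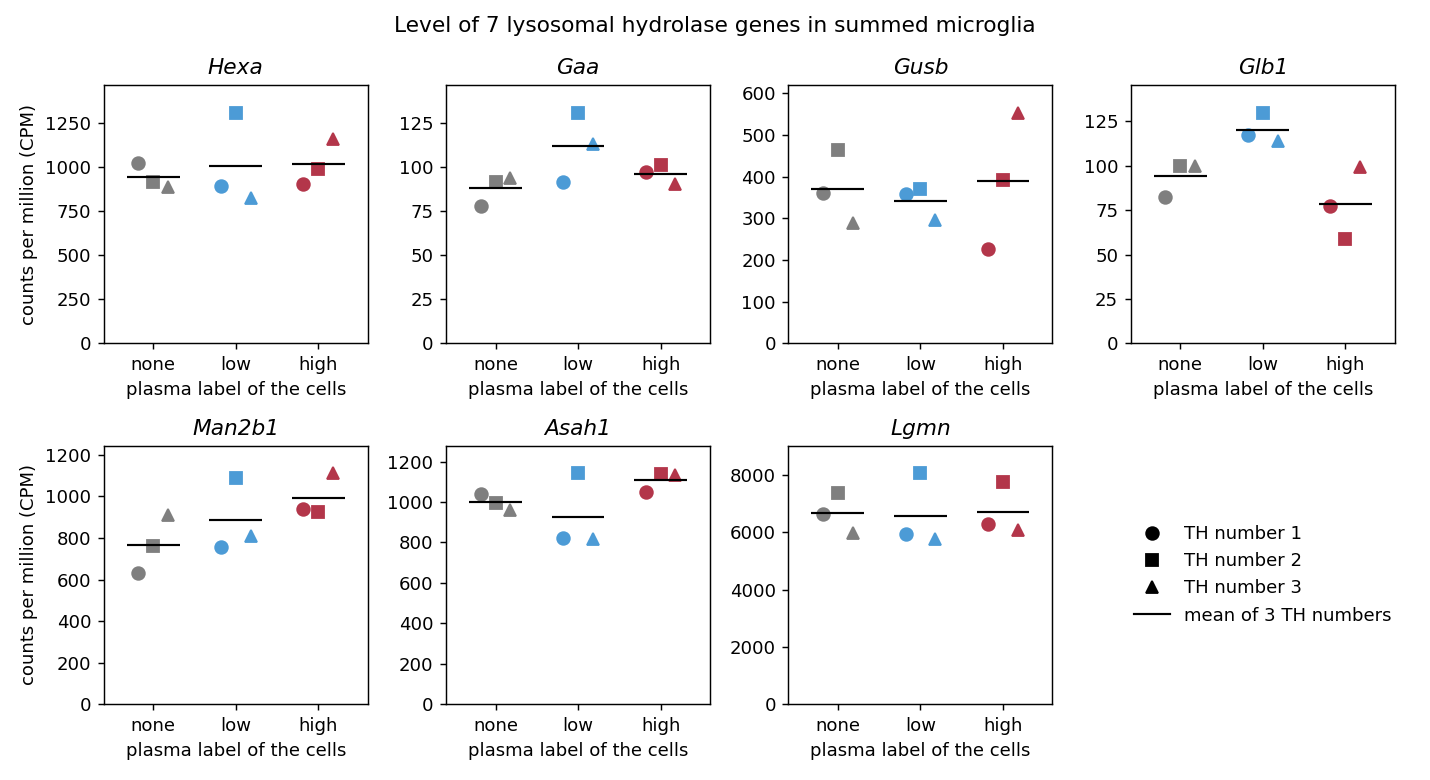
CPM of each gene in the 9 sums, with plasma group on the x axis, the marker shape giving the TH number and the line the mean of 3 TH numbers. Each panel has its own axis from 0. Glb1 in plasma low and Man2b1 and Asah1 in plasma high lie above all values of plasma none, and Gusb in plasma high spans 225.8 to 553 CPM. How often this separation occurs over all genes tested was not counted.

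Over the 7 genes, plasma high was higher than plasma none in 3 of 3 TH numbers for 2 (Man2b1 and Asah1) and lower for 1 (Glb1). The same holds for 18.8% and 13.8% of the 5534 genes tested, and for 25.4% and 19.6% of the 806 genes tested with at least 200 CPM, a level that 5 of the 7 reach. The count of 0 at 1.5-fold stands beside 16.3% of genes tested. The median log2 ratio of the 7 was 0.11, with −0.08, 0.11 and 0.24 in TH 1, 2 and 3, beside 0.05 over all genes tested and 0.03 over those with at least 200 CPM. It was −0.0010 without TH 3. These counts are near the background. How many of all genes tested have ranges that do not overlap was not counted. The separated ranges of Glb1, Man2b1 and Asah1 thus have no background to be read against.

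For plasma low against plasma none, 0 of 7 passed 1.5-fold (10.2% of 5489 genes tested), 2 of 7 were higher in 3 of 3 TH numbers (Gaa and Glb1; 16.7% of genes tested, and 17.2% of those with at least 200 CPM) and 0 were lower (11.8% and 14.5%). The median of the 7 was 0.07 beside 0.05 over all genes tested. Gaa and Glb1 were also the least abundant of the 7 per kb. Both were higher in 3 of 3 TH numbers under 11 of 11 alternative settings that keep all TH numbers, of which the pseudocount settings cannot change a sign. Glb1 passed 1.5-fold with cells thinned to 50000 reads (0.68) and with cells weighted equally (0.70), and Gaa passed it with cells weighted equally.

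For plasma high against plasma low, 1 of 7 passed 1.5-fold (Glb1, lower; 11.1% of 5709 genes tested), 0 were higher in 3 of 3 TH numbers (14.2% of genes tested, and 17.4% of those with at least 200 CPM) and 1 was lower (13.1% and 13.2%). The median of the 7 was 0.04, with −0.24 in TH 2 and 0.45 in TH 3, and −0.14 without TH 3. The 3 comparisons share groups and are not independent of each other. In plasma low, the deep sum of TH 2 was the highest of the 9 sums for 5 of the 7 genes (Hexa, Gaa, Glb1, Asah1 and Lgmn). A rise in level from none through low to high was seen in 1 TH number each for Gaa, Gusb and Man2b1 and in 0 for the others.

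**Figure D3:**
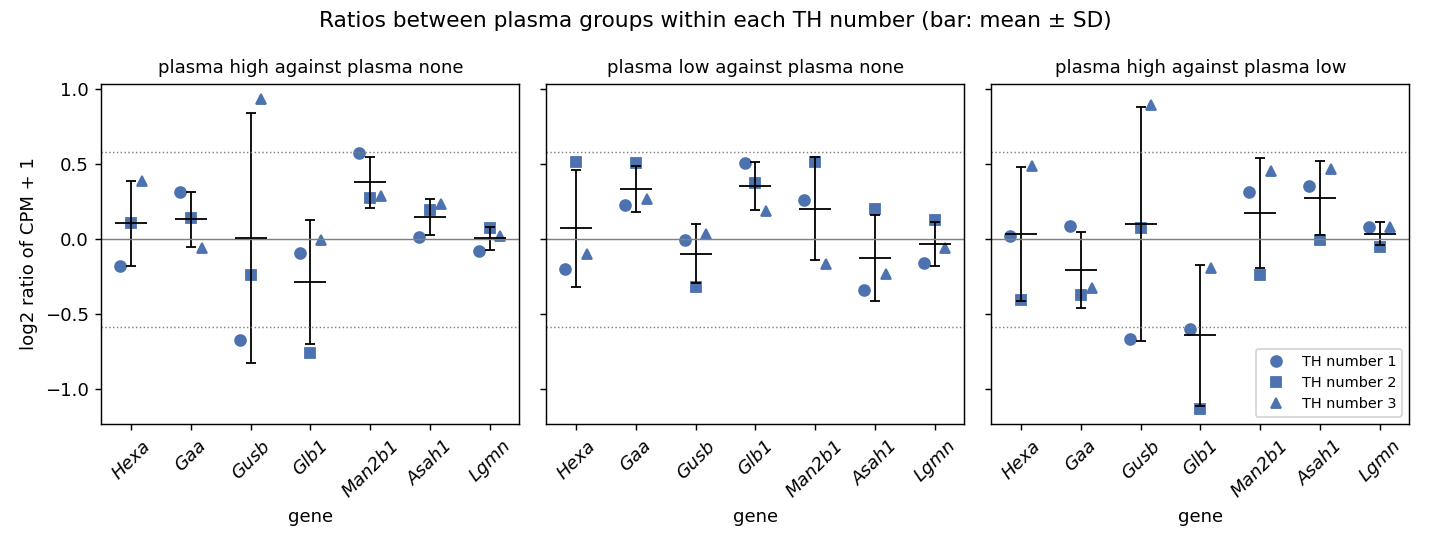
Log2 ratio of CPM + 1 between plasma groups for each gene, 1 panel per comparison. Points are single TH numbers, bars the mean ± SD over 3 TH numbers, and dotted lines mark 1.5-fold in each direction. The mean of Glb1 in plasma high against plasma low lies past a dotted line, at −0.64, and the points of Gusb in plasma high spread from −0.67 to 0.93 against plasma none.

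Detection in single cells separated the genes more than the groups did. With each cell thinned to 50000 reads, Lgmn had a read in 99.7% of plasma none cells, 99.7% of plasma low cells and all plasma high cells, and Glb1 in 14.2% (95% Clopper-Pearson interval 10.7% to 18.3%), 20.2% (16.2% to 24.8%) and 16.9% (12.8% to 21.7%). Gaa was read in 19.7% (15.6% to 24.2%), 23.9% (19.6% to 28.8%) and 24.1% (19.3% to 29.5%) of cells. These intervals cover counting error only, and reads carry no molecular identifiers. A cell without a read may hold RNA of these low genes that was not captured at this depth.

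Asah1 had a read in 73.1% (68.1% to 77.7%), 78.1% (73.4% to 82.3%) and 83.8% (79.04% to 87.8%) of plasma none, low and high cells, the largest gap among the 7 between plasma high and plasma none (10.7 ± 4.6 percentage points, higher in 3 of 3 TH numbers). Hexa was read in 80.4%, 86.6% and 86.6% of cells, Man2b1 in 76.9%, 82.6% and 84.1%, and Gusb in 47.1%, 53.9% and 54.1%. At the cells' own depth the shares of Asah1 were 74.6%, 82.1% and 85.2%. Over all genes tested the share of cells with a read was above its plasma none level in plasma high in 3 of 3 TH numbers for 35.5%, and in plasma low for 39.4%, and the number of genes per cell was also higher in those groups.

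A cell had reads of 4.11 ± 0.05, 4.45 ± 0.16 and 4.50 ± 0.34 of the 7 genes on average over the none, low and high groups. In TH 2 the average was 4.12 in plasma none and 4.10 in plasma high. At least 4 of the 7 were read in 71.4% ± 1.4, 82.6% ± 3.3 and 84.5% ± 10.9 of cells (SD, n = 3 TH numbers). Reads of all 7 were found in 4, 6 and 4 cells, and 0 of 987 cells had reads of none.

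**Figure D4:**
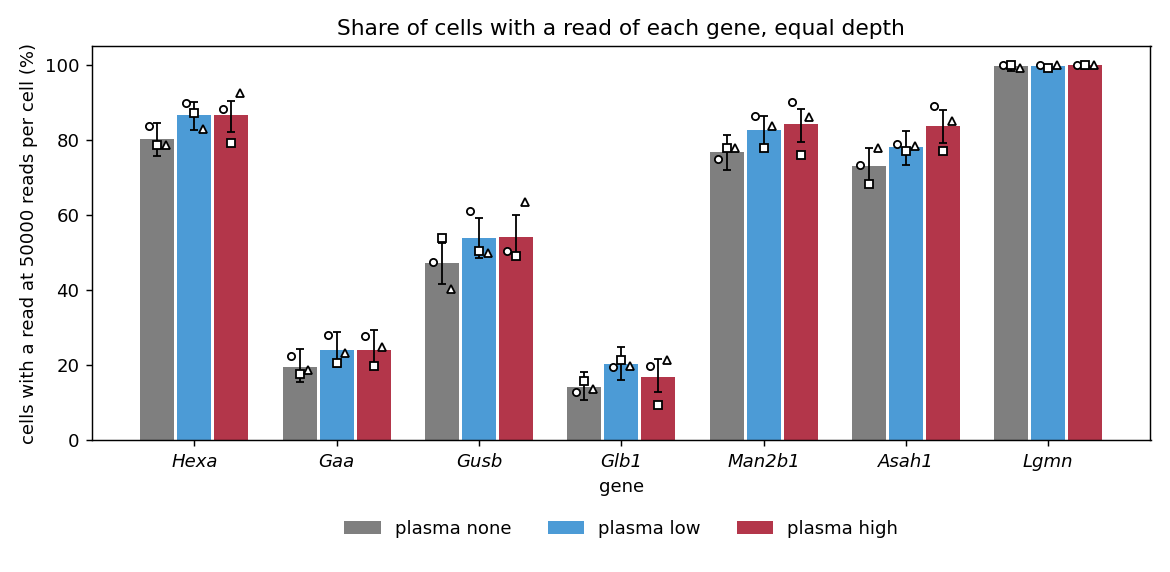
Share of cells with a read of each gene after thinning every cell to 50000 reads, by plasma group. Bars are all cells of a group with 95% Clopper-Pearson intervals, and open markers are single TH numbers. Lgmn is near the top of the axis in each group while Gaa and Glb1 stay under 30% in every sum.

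Correlations between the 7 genes across cells were weak. Spearman correlations were computed within each of the 9 sets of cells of 1 group and TH number and averaged. Over the 21 pairs of the 7 genes the averages ran from −0.02 to 0.06, with a median of 0.02. Cells of a set share a TH number and differ in depth, and with this many zero counts weak values are no finding and do not show that the genes vary independently.

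Among 2814 genes with a read in at least 20% of cells, Tmem202 was the most like Hexa, with a mean correlation of 0.91 (0.87 to 0.94 over 9 sets), the overlapping gene described above. Next to Hexa came Gm49369 (0.19) and Ctsd (0.19). The genes most like Lgmn were R74862 (0.18), Cd81 (0.17) and Tmem119 (0.16). The nearest genes of the others were Cd300a, Man1c1 and Rtn4rl1 for Gaa, Rps27l, Kdsr and Pla2g15 for Gusb, Cdc42se1, Nudcd3 and Pip4k2a for Glb1, Csf1r, Golm1 and Ptbp3 for Man2b1, and Atp6v0a1, Sf3b4 and Ncln for Asah1, with means of 0.11 to 0.14. Of these 20 nearest genes besides Tmem202, 13 had a correlation below 0 in at least 1 of the 9 sets, and single sets ran from −0.12 to 0.37. They are the top of 2814 genes compared, and correlations of this size are no finding.

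Many lysosomal genes carry the motif TCACGTG near their start, which the transcription factor TFEB and its relatives bind. RefSeq promoter windows (GRCm38.p6, 250 bases before to 50 after the start) were matched for 6 of the 7 genes, in 7 windows, and both strands were searched for TCACGTG and for CACGTG, which lies within it. The 7-base motif was found in 3 windows, of Gaa, Glb1 and the second start of Lgmn, and no other window of the 7 genes held CACGTG. Of all 32851 windows, 3.77% hold TCACGTG and 7.15% CACGTG. Among the genes with a match, Gaa and Glb1 were higher in plasma low than in plasma none in 3 of 3 TH numbers. Lgmn, with the same motif, had a log2 ratio of −0.03 there. A link between the motif and the levels was not tested. The 30 bases around each match follow. Each is written 5′ to 3′ on the strand of the gene, with the motif in capitals.
Gaa (chr11:119267811-119267840, plus strand): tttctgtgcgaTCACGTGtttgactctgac
Glb1 (chr9:114401018-114401047, plus strand): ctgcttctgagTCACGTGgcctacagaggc
Lgmn (chr12:102439124-102439153, minus strand): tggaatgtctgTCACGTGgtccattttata
CACGTG begins 140 bases before the start of Gaa, 48 before that of Glb1 and 49 before the second start of Lgmn. A match describes these letters only.

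The other lysosomal genes were read from 8 lists of 95 genes. Of the 62 tested for plasma high against plasma none, 38 had a positive mean ratio, with a median log2 ratio of 0.13 beside 0.05 over all genes tested. In 3 of 3 TH numbers 18 were higher, or 29.03% beside 18.8% of all genes tested and 25.4% of those with at least 200 CPM, and 5 were lower, or 8.06% beside 13.8% and 19.6%. By at least 1.5-fold 8 were higher and 1 lower, together 14.5% beside 16.3%. Of 60 tested for plasma low against plasma none, 16 were higher in 3 of 3 TH numbers (26.7% beside 16.7% of all genes tested) and 4 lower (6.7% beside 11.8%), with a median of 0.11. Of 62 tested for plasma high against plasma low, 12 were higher (19.4% beside 14.2%) and 8 lower (12.9% beside 13.1%), with a median of 0.08. These differences from the background were not tested. For plasma high against plasma none, 6 of the 62 (Galc, Arsk, Manba, Engase, Gga1 and Tfeb) had too low a level or too few cells with a read in plasma none and passed the filter only through plasma high. All 6 are among the 38 with a positive mean ratio, and Gga1 is among the 18 higher and the 8 past 1.5-fold. For plasma low against plasma none, 5 passed only through plasma low, with 1 of them (Manba) among the 16 higher. For plasma high against plasma low, 3 passed only through plasma high, with 2 of them (Galc and Arsa) among the 12 higher. Ids passed only through plasma low and is among the 8 lower. The counts and medians include these genes.

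The counts of single lists that follow are for plasma high against plasma none and rest on few genes; each is read beside the 18.8% higher and 13.8% lower of all genes tested. Among 9 tested genes of glycosphingolipid breakdown, 2 were higher (Gm2a and Psap) and 1 lower (Neu1) in 3 of 3 TH numbers. Galc, which encodes the galactosylceramidase, had 48.1 ± 36.3 CPM in plasma high, against 8.07 ± 4.48 in plasma none and 8.10 ± 3.31 in plasma low. Because it was tested only through the group where it is high, its place at the top of this list (log2 ratio 2.15 ± 2.05) is no finding: the ratio was −0.15 in TH 3, and 1 cell gave up to 37.1% of its reads in a group. Of 6 tested glycosaminoglycan enzymes, 3 were higher and 1 lower in 3 of 3 TH numbers. Idua, the alpha-iduronidase, had the largest ratio (1.18 ± 0.44, from 35.4 ± 4.4 to 85.6 ± 37.4 CPM) and Naglu, which removes N-acetylglucosamine from heparan sulfate, the lowest (−0.34 ± 0.08). Gusb, which acts on the same substrates, had a mean ratio of 0.01.

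Of 7 tested enzymes of glycoprotein glycans, 0 were higher and 1 lower in 3 of 3 TH numbers. Manba, the beta-mannosidase, was at 0.92 ± 1.26, with the limit given above, and Ctbs, the chitobiase, at −0.49 ± 0.16, while Man2b1 in the same pathway was at 0.38. Among 10 tested proteases and inhibitors around legumain and beta-galactosidase, 6 were higher and 0 lower. Ctsh, a cysteine protease, had the largest ratio (0.64 ± 0.45) and Cstb, a cystatin, the lowest (−0.41 ± 0.54), while Lgmn was at 0.01.

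Of 16 tested lipid and other lysosomal hydrolases, 4 were higher and 2 lower in 3 of 3 TH numbers, from Scpep1, a carboxypeptidase, at −0.42 ± 0.21 to Pld3, an exonuclease of the lysosome, at 0.69 ± 0.43. Of 10 tested genes of mannose 6-phosphate tagging and sorting, 3 were higher and 0 lower, and 1 of the 3 is Gga1, with the limit given above. Ap1g1, a subunit of the AP-1 coat, was at 0.69 ± 0.27 and Nagpa, which uncovers the mannose 6-phosphate tag, at −0.10 ± 0.52. Of 4 tested lysosomal transcription factors, 0 were higher and 0 lower, with Tfeb, under the same limit as Gga1, at 0.13 ± 0.93 and Mitf at −0.24 ± 1.36. Of 9 genes of glycogen handling outside the glycosidase Gaa, 0 passed the filter on low values.

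**Figure D5:**
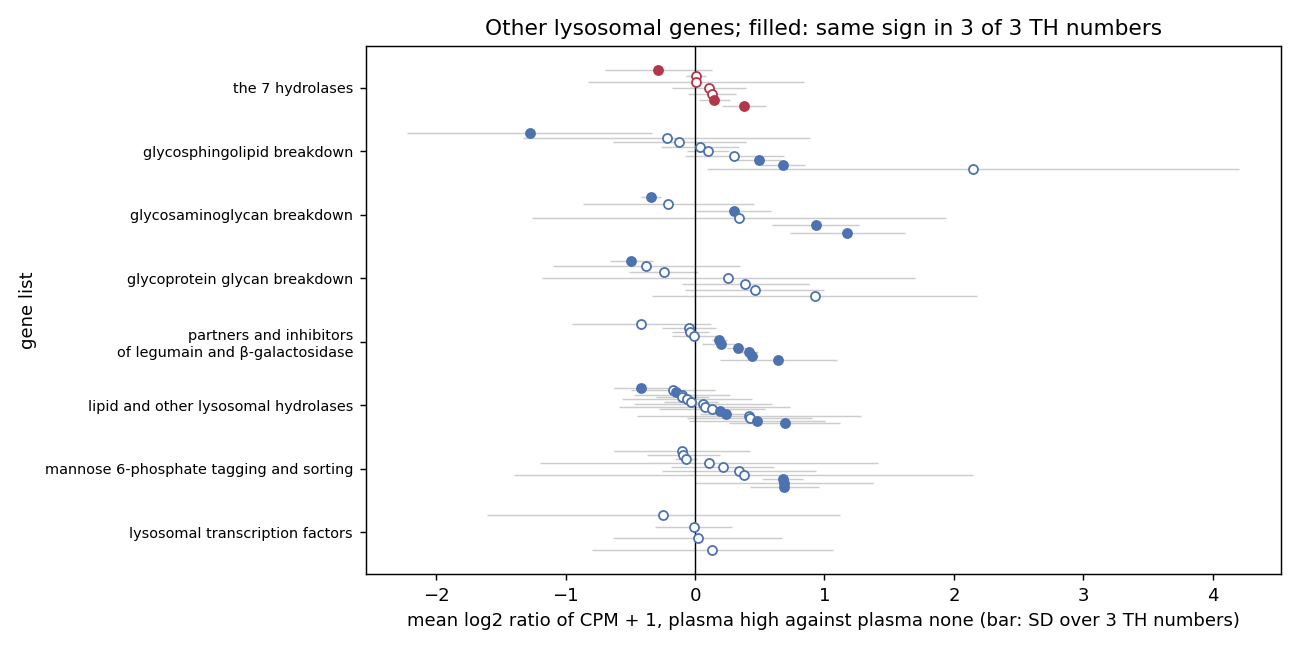
Mean log2 ratio of CPM + 1, plasma high against plasma none, for the 7 hydrolases (red) and the tested genes of 7 other lysosomal lists (blue). Each point is a gene, bars are SD over 3 TH numbers, and filled points have the same sign in 3 of 3 TH numbers. The 7 hydrolases lie between −0.28 and 0.38, and the widest values are those of Neu1 and of Galc, which was tested only through its level in plasma high.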

How the data were processed

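Each deposited table holds read counts per gene and cell, 1 table per TH number. Per the submitters' processing notes bcl2fastq, Trim Galore, STAR 2.5.3a and Seurat were used with the build mm10. The counting tool, annotation and use of strand are not given in the sources used here. Per the file headers, only top hits were kept for TH 2 and TH 3, which is not said of TH 1. A single TH 3 cell had 2 values that were not whole. These were labelled expected counts as deposited, and what was done to make them is not given in the sources used here. The label rests on the fractions alone and does not show that the cell holds expected counts. Both genes concerned have 2 probes each and were left out. Whether the 2 values are means over probes was not tested. Of 1111 labelled cells, 1045 had a column, and 66 were not analysed here. No 2 cells held identical values, and 987 cells had at least 50000 reads and 500 genes. Median depth was 207353, 229931 and 267143 reads per cell in plasma none, low and high.

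Reads were summed by group and TH number and scaled to CPM with TMM factors (edgeR 4.0.16, R 4.3.3). Log2 ratios of CPM + 1 were taken within TH number and averaged. Genes tested had a mean of at least 20 CPM and a read in at least 10% of cells of 1 group. The calculation was tested on simulated counts. Cells were thinned to 50000 reads with a fixed seed. Doublets were not called, as each well took a sorted cell, and cells were not clustered. Of the gene IDs, 35544 were in GENCODE M21 and 99.6% of these had identical coordinates. Transcript lengths are those of GENCODE M21.

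The genes and lists were chosen with earlier results of these data known. Named genes are the 7 hydrolases, the largest rise and fall of each other list, Ctsa, Cst3, Gm2a and Psap, and the 3 genes most like each hydrolase. A further gene of this rule is not reported here. Genes named outside this rule were chosen after their values were seen. They are the overlapping Tmppe, marker genes, and list genes that passed the filter through a single group. Alternatives covered scaling, pseudocount, cell filter, weighting, depth, wells, cells with other markers, the replicate block and each TH number.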

Additional observations from a re-analysis of the deposited data

How the results depend on the processing

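The TH number served as a replicate block, since ratios were taken within it; the labels do not say that it pairs cells. With no replicate block the medians of the 7 genes were 0.11, 0.10 and 0.03 for high against none, low against none and high against low, and the counts past 1.5-fold stayed at 0, 0 and 1. Counts over TH numbers cannot be given without the block. For plasma high against plasma none, the count higher in 3 of 3 TH numbers was 1 in place of 2 with library size scaling, DESeq2 1.42.0 size factors, cells of at least 100000 reads, the top cell left out or cells with other markers left out, 3 with thinned cells (Hexa added) and 4 with cells weighted equally. The count lower was 0 in place of 1 with all cells with any read, the top cell left out, thinned cells, the outermost wells left out, cells with other markers left out or cells weighted equally. For plasma low against plasma none, the count past 1.5-fold was 1 with thinned cells and 2 with cells weighted equally, in place of 0, and the count lower was 1 in place of 0 with thinned cells, the outermost wells left out or cells weighted equally. For plasma high against plasma low, the count past 1.5-fold was 0 in place of 1 with the outermost wells left out or at 2-fold, the count higher was 1 in place of 0 with DESeq2 size factors, the top cell left out, thinned cells or equal weights, and the count lower was 2 in place of 1 with the outermost wells or cells with other markers left out.

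Leaving out each TH number in turn, where the same sign is then needed in 2 TH numbers only, gave 2 to 4 higher and 1 to 2 lower for plasma high against plasma none. It gave 2 to 3 higher and 0 to 3 lower for plasma low against plasma none. For plasma high against plasma low it gave 0 to 1 past 1.5-fold, 0 to 4 higher and 1 to 2 lower. The medians of the 7 genes moved by less than their SD over TH numbers under each alternative. Over the 7 genes under 15 alternatives in each comparison, the mean ratio changed sign in 14 for plasma high against plasma none (8 of them of Lgmn and 4 of Gusb), 4 for plasma low against plasma none and 3 for plasma high against plasma low. No cause of these changes was tested. Of the scalings, library size scaling moved the median of all genes most for plasma high against plasma none and against plasma low, by −0.04 in each (log2). For plasma low against plasma none DESeq2 size factors moved it most, by −0.02.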
